A study of Chlamydomonas reinhardtii with 6 samples.

Results

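Transcripts of 6 DNA replication genes were followed across all libraries of an RNA-seq experiment on the green alga Chlamydomonas reinhardtii. The genes are MCM2 (Cre07.g338000), MCM3 (Cre06.g295700), MCM4 (Cre07.g316850), MCM6 (Cre03.g178650), PCN1 (Cre12.g515850) and RIR1 (Cre12.g492950). They were chosen by their identifiers as a readout of dividing cells, and all 6 were found among the 17741 genes of the count table. The experiment compared 1 cell group isolate, from a line selected under rotifer predation, with 1 single cell isolate, from a line kept without predation. Both lines were started with the wildtype strain cc1009. Each isolate grew in chemostats (continuous culture vessels) for 10 days and then for 5 more days under control conditions, with rotifers added, or with nitrogen lowered to 40 µM. The control and rotifer treatments kept the COOL80 medium. RNA of the 3 chemostats of a condition was pooled before sequencing, so each morphotype had 1 library per treatment and 6 libraries were available in all. With 1 isolate per morphotype, a difference between the morphotypes is a difference between these isolates.

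MCM proteins form the ring-shaped helicase that is loaded at replication origins and opens the double helix ahead of the fork. PCN1 encodes the proliferating cell nuclear antigen, a sliding clamp that holds DNA polymerase on its template. RIR1 encodes the large subunit of ribonucleotide reductase, which makes the deoxyribonucleotides used for new DNA. Chlamydomonas divides by multiple fission, in which a cell grows for a long time and then passes through rapid rounds of DNA replication and division, and replication genes are known to be transcribed around those rounds in synchronised cultures. In pooled RNA of a whole culture, fewer replicating cells and less of a transcript per replicating cell cannot be told apart. The genes lie on chromosomes 7 (MCM2 and MCM4), 6 (MCM3), 3 (MCM6) and 12 (PCN1 and RIR1), and none of the 6 overlapped another gene in the RefSeq table of assembly Chlamydomonas_reinhardtii_v5.5.

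Reads counted on genes numbered from 5453218 to 9054895 per library, and the rotifer library was the smallest within each morphotype. The study's methods also describe a lower mapped share for the rotifer libraries, whose part in the rotifer values was not tested. Members had between 26 and 402 counts in a library, well above a floor of 3 counts. All 6 passed the filter on low counts with 14136 genes in total. Values below are counts per 1000000 reads after scaling by the trimmed mean of M-values (CPM). Intervals are 95% exact counting intervals for a single library and cover counting error only, not the variation between cultures. No condition had a replicate library, so ratios of one library to another carry no test.

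The transcripts of the MCM genes and PCN1 had lower values in stressed single cells than in control single cells, lowest under low nitrogen. For MCM4 with rotifers the counting interval included 1, as it did for rotifer against low nitrogen in MCM4 and MCM6. In cell groups the transcripts of the MCM genes and PCN1 stayed near the control level or above it. In the control treatment all 6 transcripts were lower in the cell group isolate, as were 50.6% of tested genes. The cell group isolate had more of all but MCM4 with rotifers and of all but RIR1 under low nitrogen. Of tested genes, 52.1% and 50.8% were higher there. Between the morphotypes the counting interval included 1 for PCN1 in control, MCM2 and MCM4 with rotifers, and MCM4 and RIR1 under low nitrogen. RIR1 followed a different course under low nitrogen. In the edgeR fit to the 6 libraries, none of these genes reached an adjusted p under 0.05 between morphotypes or between treatments. Its spread holds any difference in the response of the isolates, since no condition had a replicate library.

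The helicase gene MCM2 had 238, 61 and 51 counts in single cells under control, rotifer and low nitrogen, which correspond to 24.5, 10.8 and 5.995 CPM. In cell groups it had 83, 58 and 82 counts, or 11.1, 11.1 and 9.86 CPM. The control library of single cells stood alone at the top, and the 3 cell group libraries lay within a 1.12-fold range. Within single cells, MCM2 was 2.26-fold lower with rotifers than in control (95% counting interval 1.70 to 3.05) and 4.09-fold lower under low nitrogen (3.01 to 5.65).

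MCM3, a further subunit of the same ring, had 132, 33 and 26 counts in single cells, or 13.6, 5.87 and 3.06 CPM. In cell groups it had 60, 67 and 61 counts, or 7.99, 12.8 and 7.34 CPM. Its rotifer library in cell groups was nearly as high as the single cell control, and the groups overlapped. MCM3 was 2.32-fold lower with rotifers (1.57 to 3.51) and 4.45-fold lower under low nitrogen (2.91 to 7.07) in single cells. In cell groups the rotifer library was 1.60-fold higher than control (1.11 to 2.31), and low nitrogen stood at 0.918 of control (0.632 to 1.33).

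MCM6 had 162, 49 and 54 counts in single cells, or 16.7, 8.72 and 6.35 CPM, and 83, 80 and 81 counts in cell groups, or 11.1, 15.3 and 9.74 CPM. This order of libraries was that of MCM3. In single cells it was 1.92-fold lower with rotifers (1.38 to 2.69) and 2.63-fold lower under low nitrogen (1.92 to 3.65), and in cell groups it was 1.38-fold higher with rotifers (1.004 to 1.90).

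MCM4 had 108, 50 and 53 counts in single cells, or 11.1, 8.89 and 6.23 CPM, and 37, 43 and 62 counts in cell groups, or 4.93, 8.22 and 7.46 CPM. It was the only MCM gene whose lowest library was the control of cell groups. In single cells the rotifer library was at 0.799 of control, with an interval that included 1 (0.559 to 1.13), and low nitrogen was 1.79-fold lower (1.27 to 2.53). In cell groups MCM4 was 1.67-fold higher with rotifers (1.05 to 2.66) and 1.51-fold higher under low nitrogen, where the interval included 1 (0.991 to 2.34).

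**Figure D1:**
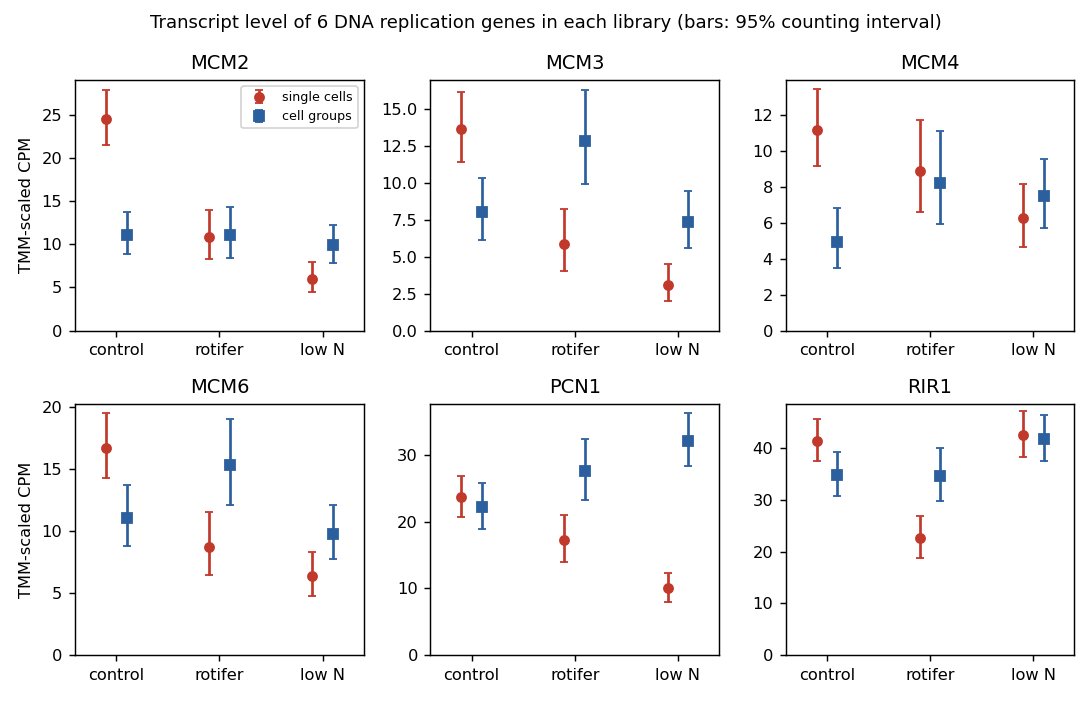
Transcript level of each gene in the 6 libraries, as TMM-scaled CPM (vertical axis, starting at 0) by treatment (horizontal axis), with single cells as red circles and cell groups as blue squares. Bars are 95% counting intervals of 1 library each. The 4 MCM genes have their highest value in the control library of single cells, PCN1 in cell groups under low nitrogen (32.1 CPM) and RIR1 in single cells under low nitrogen (42.6 CPM).

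The clamp gene PCN1 had 229, 97 and 85 counts in single cells, or 23.6, 17.3 and 9.99 CPM, and 166, 144 and 267 counts in cell groups, or 22.1, 27.5 and 32.1 CPM. The morphotypes were close in control and farthest apart under low nitrogen. In single cells PCN1 was 1.37-fold lower with rotifers (1.07 to 1.75) and 2.36-fold lower under low nitrogen (1.83 to 3.07). In cell groups it was 1.24-fold higher with rotifers, with an interval that included 1 (0.988 to 1.56), and 1.45-fold higher under low nitrogen (1.19 to 1.77). PCN1 under low nitrogen was therefore on opposite sides of control in the 2 isolates.

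The ribonucleotide reductase gene RIR1 had 402, 127 and 362 counts in single cells, or 41.4, 22.6 and 42.6 CPM, and 262, 181 and 348 counts in cell groups, or 34.9, 34.6 and 41.9 CPM. Its rotifer library in single cells was the lowest of the 6, and the other 5 lay between 34.6 and 42.6 CPM. RIR1 was 1.83-fold lower with rotifers in single cells (1.499 to 2.26) and at 0.991 of control with rotifers in cell groups (0.815 to 1.20). Under low nitrogen it was at 1.03 of control in single cells (0.888 to 1.19), where MCM2 and MCM3 were more than 4-fold lower, and 1.20-fold higher in cell groups (1.02 to 1.41).

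Set against all tested genes, in single cells with rotifers 6 of the 6 genes were lower than in control, as were 53.1% of tested genes, and 2 were at least 2-fold lower, as were 15.7%. The median log2 ratio was -0.88 over the 6 genes and -0.06 over all tested genes (on log2 of CPM plus 0.5). Under low nitrogen in single cells 5 of 6 were lower, against 49.7% of tested genes, and 4 were at least 2-fold lower, against 13.6%. The median was -1.26 over the 6 genes and 0.00376 over all. In cell groups with rotifers 5 of 6 were higher than control, against 50.5% of tested genes, with medians of 0.38 and 0.00458. Among these 5, the counting intervals of PCN1 and MCM2 included 1. MCM2 stood at 1.002 of control (0.704 to 1.42) and changed side with DESeq2 size factors. Under low nitrogen in cell groups the genes were split evenly, and the median over the 6 was 0.07. The lower genes there were MCM2, MCM3 and MCM6, each with a counting interval that included 1. All of them changed to the higher side when libraries were scaled by their totals alone, so the even split depends on the scaling. No member was changed 2-fold or more by either treatment in cell groups, where at least 2-fold lower values were found for 3.64% of tested genes with rotifers and 4.4% under low nitrogen, and at least 2-fold higher values for 4.34% and 6.4%. Within a morphotype both treatments are set against the same control library, so these sets of values are not independent of each other.

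**Figure D2:**
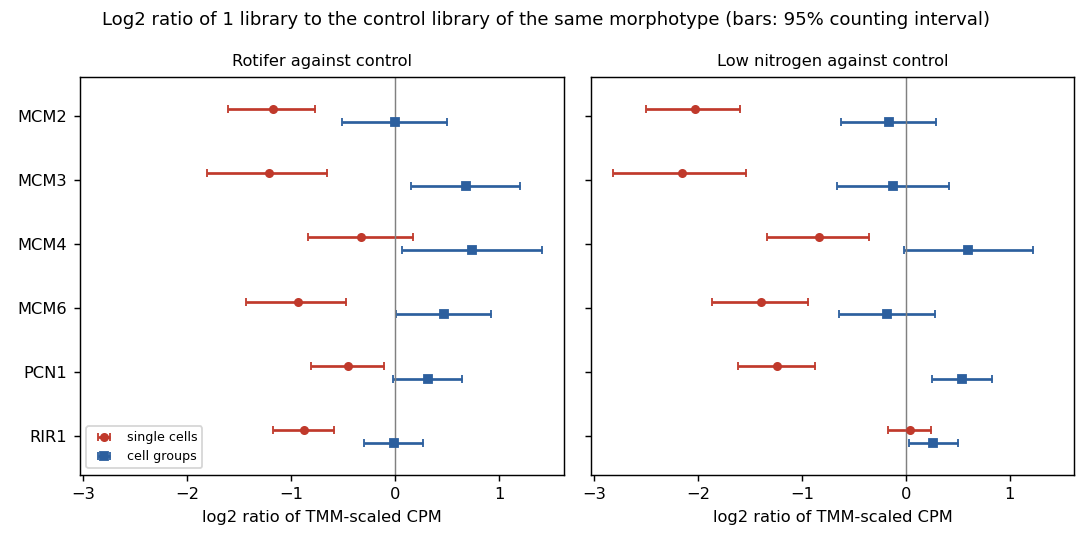
Log2 ratio of CPM (horizontal axis) of the rotifer library (left) and the low-nitrogen library (right) to the control library of the same morphotype, for each gene (vertical axis), with single cells as red circles and cell groups as blue squares. Bars are 95% counting intervals. MCM2 under low nitrogen lies at -2.03 in single cells and at -0.17 in cell groups, while RIR1 under low nitrogen lies near 0 in single cells (0.04).

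The control library of single cells enters every ratio to control given above for single cells, and none of those for cell groups. It held the highest value of the 6 libraries for 4 of the 6 genes, MCM2, MCM3, MCM4 and MCM6, and for 23.5% of all tested genes. The ratio of rotifer to low nitrogen does not use it. In single cells the rotifer library exceeded the low-nitrogen library 1.81-fold for MCM2 (1.23 to 2.68), 1.92-fold for MCM3 (1.11 to 3.34) and 1.73-fold for PCN1 (1.28 to 2.34). For MCM4 (1.43-fold, 0.950 to 2.14) and MCM6 (1.37-fold, 0.913 to 2.06) the interval included 1. RIR1 went the other way and was 1.88-fold lower with rotifers than under low nitrogen (1.53 to 2.32). Higher values with rotifers than under low nitrogen were thus seen for 5 of the 6 genes, against 47.5% of tested genes. In cell groups 4 of 6 were higher with rotifers, against 50.9% of tested genes, with intervals above 1 for MCM3 (1.74-fold, 1.21 to 2.51) and MCM6 (1.57-fold, 1.14 to 2.16). RIR1 was 1.21-fold lower there (1.01 to 1.46).

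The spread over the 3 treatments, as the SD of log2(CPM + 0.5), was larger in single cells than in cell groups for 6 of the 6 genes. This was so for 65.3% of all tested genes. In single cells and cell groups, in that order, the SD of MCM2 was 0.98 and 0.09, that of MCM3 0.998 and 0.41, and that of RIR1 0.51 and 0.15. MCM4 differed least, with 0.40 and 0.36. In the same order, the median SD over the 6 genes was 0.64 and 0.29, and over all tested genes it was 0.42 and 0.30. With the control libraries of both isolates set aside, the difference between rotifer and low nitrogen was larger in single cells for 5 of the 6 genes, with MCM6 as the exception, against 51.9% of tested genes.

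The morphotypes were then compared within each treatment. In control all 6 genes were lower in cell groups, against 50.6% of tested genes. MCM4 was 2.26-fold lower (1.54 to 3.38), MCM2 2.22-fold lower (1.72 to 2.88), MCM3 1.70-fold lower (1.25 to 2.35) and MCM6 1.51-fold lower (1.15 to 1.99). RIR1 was 1.19-fold lower (1.01 to 1.39), and the PCN1 interval included 1 (0.937 of single cells, 0.763 to 1.15). With rotifers 5 of 6 were higher in cell groups, against 52.1% of tested genes, led by MCM3 (2.18-fold, 1.42 to 3.42) and MCM6 (1.75-fold, 1.21 to 2.56). PCN1 (1.59-fold, 1.22 to 2.08) and RIR1 (1.53-fold, 1.21 to 1.94) were also higher. The intervals of MCM2 (1.02-fold, 0.700 to 1.49) and MCM4 (0.924 of single cells, 0.600 to 1.42) included 1. Under low nitrogen 5 of 6 were again higher in cell groups, against 50.8% of tested genes. PCN1 was 3.21-fold higher (2.51 to 4.15), MCM3 2.401-fold (1.49 to 3.96), MCM2 1.65-fold (1.15 to 2.38) and MCM6 1.53-fold (1.07 to 2.21). For MCM4 (1.20-fold, 0.816 to 1.76) the interval included 1. RIR1 stood at 0.984 of single cells (0.847 to 1.14).

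By their point values, MCM2, MCM3, MCM6 and PCN1 were thus higher in single cells in control and higher in cell groups in both other treatments. This pattern was held by 12.0% of tested genes. The counting interval included 1 for PCN1 in control (0.763 to 1.15) and for MCM2 with rotifers (0.700 to 1.49). With DESeq2 size factors in place of TMM the pattern held for 3 of the 6, because MCM2 with rotifers then changed side. With library totals alone it held for 5, because RIR1 under low nitrogen joined. The CPM of cell groups and single cells overlapped for all 6 genes, whereas 30.6% of tested genes had no overlap. An interaction of morphotype and treatment could not be tested, since the 6 libraries leave no degrees of freedom for it.

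**Figure D3:**
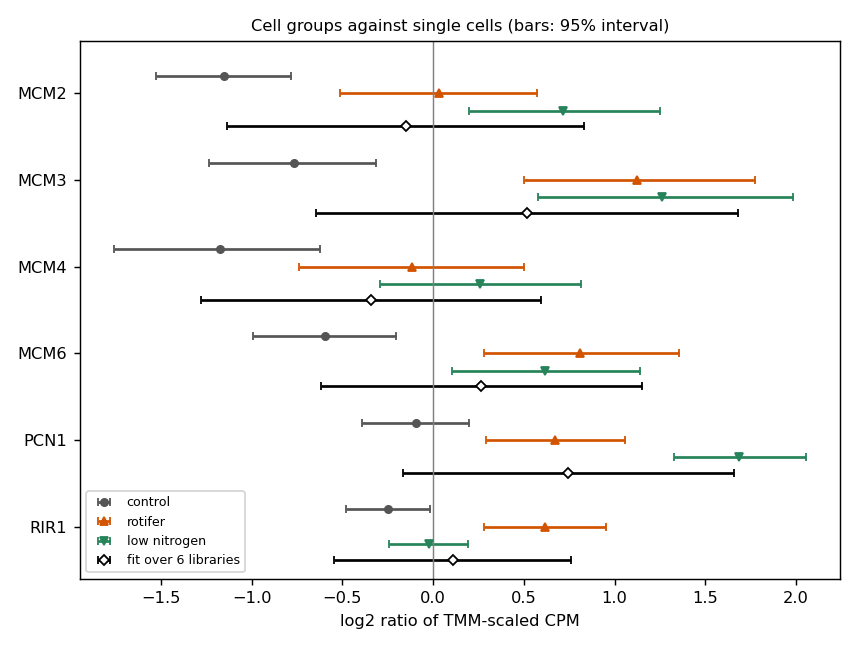
Log2 ratio of CPM in cell groups to that in single cells (horizontal axis) for each gene (vertical axis) in control (grey circles), rotifer (orange triangles) and low nitrogen (green triangles), with 95% counting intervals, and the log2 fold change fitted over the 6 libraries with its 95% interval (open diamonds). All 6 control points lie below 0, the PCN1 point under low nitrogen lies at 1.68, and all 6 fitted intervals include 0.

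A fit to the 6 libraries, adjusted for treatment, tested the morphotype difference by the quasi-likelihood test of edgeR with Benjamini-Hochberg adjustment over all tested genes. The treatments stand as the replicates, so the spread holds any difference in the response of the isolates. An adjusted p under 0.05 was reached by 7.62% of tested genes and by 0 of the 6. PCN1 had the largest value, with a log2 fold change of 0.75 (SE 0.38, 95% interval -0.17 to 1.66, edgeR adjusted p = 0.286, and 0.257 to 0.347 under other settings that keep all libraries), and it was higher in cell groups in 2 of 3 treatments. With 1 library left out it ran from 0.26 without the low-nitrogen library of the cell group isolate to 1.18 without the single cell control, with an edgeR adjusted p of at least 0.0629. MCM3 stood at 0.52 (-0.64 to 1.68), or from 0.12 to 1.19 without those same libraries, and MCM6 at 0.27 (-0.62 to 1.15). MCM2 stood at -0.15 (-1.14 to 0.83), MCM4 at -0.34 (-1.28 to 0.60) and RIR1 at 0.11 (-0.55 to 0.76). The intervals of MCM2, MCM3, MCM4, MCM6 and PCN1 include a 2-fold difference in at least 1 direction, and that of RIR1 does not. The adjusted p from edgeR over the other 5 genes ran from 0.563 to 0.859, and 0 of the 6 had an unadjusted p under 0.05, against 25.1% of tested genes. DESeq2 and limma also called 0 of the 6.

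The same fit compared the treatments with morphotype as a covariate, with 2 libraries per treatment. An adjusted p under 0.05 was reached by 0.0% of tested genes in each of the 3 comparisons, and an unadjusted p under 0.05 by 7.21% for rotifer against control, 5.77% for low nitrogen against control and 6.1% for rotifer against low nitrogen. None of the 6 genes had either, and none was called by DESeq2 or limma. Against control, low nitrogen gave MCM3 a log2 fold change of -1.21 (SE 0.59, interval -2.63 to 0.20, edgeR adjusted p = 0.853, and at least 0.838 under other settings that keep all libraries) and MCM2 one of -1.13 (SE 0.50, interval -2.33 to 0.08, edgeR adjusted p = 0.845, and at least 0.837 likewise), each lower in 2 of 2 morphotypes. MCM6 stood at -0.84 (-1.92 to 0.23), also lower in both. In cell groups, however, the ratios to control were 0.892 for MCM2 (0.649 to 1.23), 0.918 for MCM3 (0.632 to 1.33) and 0.881 for MCM6 (0.641 to 1.21). Each of these counting intervals included 1, and each ratio changed side when libraries were scaled by their totals alone. PCN1 at -0.33, MCM4 at -0.16 and RIR1 at 0.14 lay within 1 SE of 0. For rotifer against control the values ran from -0.67 for MCM2 to 0.14 for MCM4, and RIR1 stood at -0.43 (-1.24 to 0.37). When the cell group control was left out, MCM3 under low nitrogen passed at -2.10 (edgeR adjusted p = 0.0462). The only control library in that fit is the one of single cells. Without the control library of single cells it was -0.15, and PCN1 changed sign to 0.32. MCM2 likewise ran from -1.84 without the cell group control to -0.32 without the single cell control, and MCM6 from -1.43 to -0.14.

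Ratios of 2 of these transcripts within a library do not depend on how libraries are scaled. They were computed after the values had been seen and carry no test. PCN1 counts per summed count of the 4 MCM genes were 0.358, 0.503 and 0.462 for single cells in the order control, rotifer, low nitrogen. For cell groups they were 0.631, 0.581 and 0.934. Every cell group library lay above every single cell library. The intervals of single cells with rotifers (0.390 to 0.645) and under low nitrogen (0.353 to 0.601) overlapped those of cell groups in control (0.517 to 0.769) and with rotifers (0.470 to 0.716). The ratio of MCM3 to MCM2 was 0.555, 0.541 and 0.510 for single cells, against 0.723, 1.16 and 0.744 for cell groups. The single cell ratios lay close together, with wide intervals in the treated libraries (0.343 to 0.840 with rotifers and 0.305 to 0.833 under low nitrogen). The other subunits did not keep their ratio to MCM2 in single cells, where MCM4 stood at 0.454, 0.820 and 1.04 and MCM6 at 0.681, 0.803 and 1.06 of it. Of the 15 ratios among the 6 genes, 3 did not overlap between the morphotypes, MCM2 to MCM3, MCM2 to PCN1 and MCM4 to PCN1. That share is below the 31.7% of all pairs of tested genes whose ratios did not overlap.

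RIR1 per summed MCM count was 0.628 and 0.658 in single cells under control and rotifer and 1.97 under low nitrogen (1.64 to 2.36). In cell groups it was 0.996, 0.730 and 1.22. The low-nitrogen library was the highest in both isolates, and in single cells its interval lay apart from those of the other libraries. With rotifers, where RIR1 and the MCM genes were all lower in single cells than in control, the ratio stayed within counting error of the control value.

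**Figure D4:**
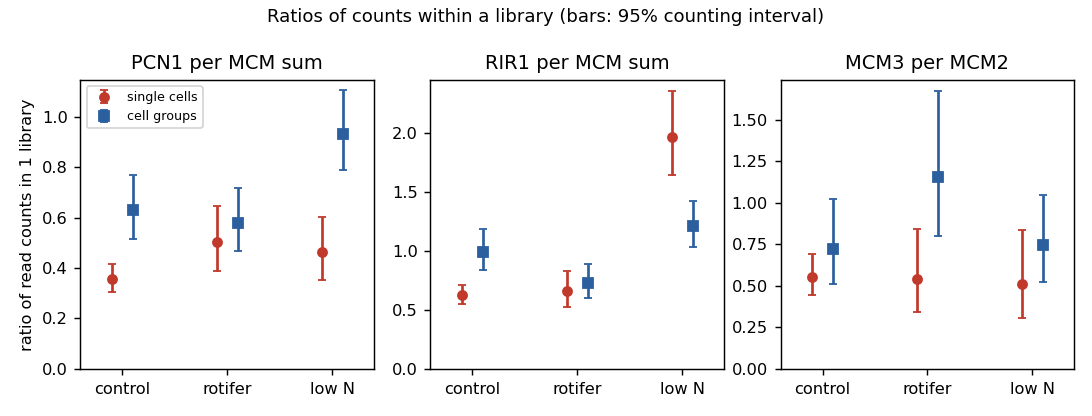
Ratio of read counts of 2 transcripts within a library (vertical axes, starting at 0) by treatment, with single cells as red circles and cell groups as blue squares, for PCN1 per summed MCM count (left), RIR1 per summed MCM count (middle) and MCM3 per MCM2 (right). Bars are 95% counting intervals. The low-nitrogen library of single cells has the highest RIR1 ratio (1.97), and PCN1 is highest relative to the MCM genes in cell groups at low nitrogen (0.934).

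Likeness over the 6 libraries was described by Pearson's r of log2(CPM + 0.5), with no test, since the points share libraries and scaling. MCM3 and MCM6 had an r of 0.989, MCM2 and MCM6 0.843, MCM2 and MCM3 0.827, and MCM3 and PCN1 0.801. MCM4 had an r between 0.497 and 0.670 with the other MCM genes, and RIR1 one between -0.13 and 0.10 with the other 5. Without the control library of single cells, MCM3 and MCM6 stood at 0.990, whereas MCM4 had an r between 0.170 and 0.242 with the other MCM genes. RIR1 then had an r between -0.53 (with MCM2) and 0.03 (with PCN1) with the other 5. The r of MCM2 and PCN1 moved from 0.528 to 0.787. Among 4004 other genes with a mean of at least 10 CPM and an SD of at least 0.5, the pattern most like the mean of the 6 was that of Cre07.g338950 (r = 0.980), followed by Cre17.g720350 (0.980), Cre12.g557250 (0.962), Cre09.g387600 (0.962) and Cre17.g696700 (0.960). The annotation used here gives these genes no name. Their r values were not computed without the control library of single cells. Cre07.g338950 had 67.8, 3.91 and 1.88 CPM in single cells and 8.79, 17.2 and 12.0 CPM in cell groups, and an r of at least 0.9 was reached by 33 of the 4004 genes.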

How the data were processed

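Per the study's methods, reads were checked with FastQC and aligned by hisat2 against genome version 5.0, and the authors deposited raw HTSeq counts per gene, without normalization. They also deposited log2-scale values normalized with DESeq2 (-1.52 to 16.5, log base taken from the values), used here only to check directions, and a table of their own fold changes and adjusted p-values, not used. Tool versions and the strand setting are not given in the sources used here. The methods report a lower mapped share for rotifer libraries. Columns of authors' means left unused numbered 5 and 3 in the count and normalized tables. Counts were fitted with edgeR 4.0.16 (R 4.3.3), TMM scaling and an additive design of morphotype and treatment with 2 residual degrees of freedom. The filter required 1.30 CPM in 3 or more libraries and a total of 15 counts. SEs derive from the quasi-likelihood F statistic. The fit was also run on simulated counts that held no difference in response between the isolates, so that run cannot assess such differences here. Alternatives were DESeq2 1.42.0, limma 3.58.1, other scalings, no filter, no covariate, and 1 library left out. Single-library intervals (95%) are exact Poisson or binomial. All 6 members were named by rule, as were the 5 most similar genes. The members and lists were chosen with earlier results of these data known. Further lists of replication, histone, cyclin, ribosomal and photosynthesis genes, set by symbol, matched 0 genes, because the gene table (17738 of 17741 identifiers matched) gives no symbols, so they and a check of algal markers are not reported. Sequences were not analysed here.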

Additional observations from a re-analysis of the deposited data

Results flagged for a closer look

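For 3 of the genes a treated library lay on opposite sides of control in the 2 isolates, each time by more than its counting interval. The 24 contrasts of the 6 genes examined also included those between morphotypes, which cannot take this form. With rotifers against control, MCM3 had a log2 ratio of -1.21 in single cells and 0.68 in cell groups, and MCM6 one of -0.94 and 0.47. That is 2 of the 6 genes, against 10.4% of all tested genes under the same rule. Under low nitrogen, PCN1 stood at -1.24 in single cells and at 0.54 in cell groups. That is 1 of 6, near the share of 17.2% among tested genes. For rotifer against low nitrogen it was 0 of 6, against 7.29% of tested genes. The difference between morphotypes likewise changed side between treatments, past the counting intervals, for 4 of the 6 genes and for 20.6% of tested genes. For cell groups against single cells, MCM2 stood at -1.15 in control and 0.72 under low nitrogen, MCM3 at -0.77 in control, 1.12 with rotifers and 1.26 under low nitrogen, MCM6 at -0.59, 0.81 and 0.62 in the same order, and RIR1 at -0.25 in control and 0.61 with rotifers. These differences were not tested, as each value rests on 1 library against 1. They share the control library of single cells, so they are not separate observations.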

How the results depend on the processing

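Of 144 values for the 6 genes under other scalings, tests, filters and designs, 142 kept their direction and their side of the threshold. The exceptions, both with library totals only, were MCM4 for rotifer against control (-0.0094) and PCN1 for rotifer against low nitrogen (-0.018). The lowest adjusted p among these 144 was 0.257. With library totals only, the median of all genes moved by -0.24 for rotifer against control in single cells and by 0.21 for low nitrogen against control in cell groups (log2), and 6 of 36 directions between treatments changed, 5 of them in cell groups. With DESeq2 size factors or the authors' normalized values 1 of 36 changed, that of MCM2 with rotifers in cell groups. The authors' normalized values and the choice of within-library ratios were added after seeing the data.

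The number of genes called between morphotypes was 1077, and 1732 with the DESeq2 Wald test, which called 85 genes for rotifer against control, 49 for low nitrogen against control and 49 for rotifer against low nitrogen, where edgeR called 0. None of the 6 genes was among them. Leaving out 1 library gave between 138 and 1999 calls for morphotype, 0 and 1011 for rotifer against control, 0 and 614 for low nitrogen against control, and 0 and 12 for rotifer against low nitrogen. The lowest was without the rotifer library of single cells and the highest without the control library of cell groups. Each of these fits compares the morphotypes in 2 treatments, since the remaining library of the treatment has no partner.

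With 1 library left out, 24 of 144 values for the 6 genes changed sign and 1 passed the threshold. For cell groups against single cells, MCM2 ran from -0.61 to 0.38, MCM4 from -0.68 to 0.076, MCM6 from -0.00132 to 0.71 (it was also below 0, at -0.00131, without the rotifer library of cell groups), PCN1 from 0.26 to 1.18, MCM3 from 0.12 to 1.19 and RIR1 from -0.14 to 0.29. For rotifer against control, MCM2 ran from -1.31 to 0.18, MCM3 from -1.22 to 0.71, MCM4 from -0.38 to 0.83, MCM6 from -0.85 to 0.42 and PCN1 from -0.66 to 0.58. For low nitrogen against control, MCM4 ran from -0.73 to 0.51, PCN1 from -1.07 to 0.34, RIR1 from -0.10 to 0.42, MCM3 from -2.10 to -0.15, MCM2 from -1.84 to -0.32 and MCM6 from -1.43 to -0.14. For rotifer against low nitrogen, MCM2 ran from -0.11 to 1.20, MCM4 from -0.11 to 0.81 and PCN1 from -0.40 to 1.01. The additive fit already pairs the morphotypes by treatment and the treatments by morphotype. Without that pairing 1054 genes were called between morphotypes and 0 between treatments, and the calls for the 6 genes did not change. Counts of 26 to 402 per library limit single ratios, as the counting intervals show.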

Other observations

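In the authors' normalized table, the column of means headed for cell groups equals the mean of the 3 single cell columns for all 16528 genes (within 1e-06), and the column headed for single cells equals the mean of the cell group columns. For PCN1 the column headed for cell groups holds 7.04 and that headed for single cells 7.46, whereas the means of the library columns are 7.46 in cell groups and 7.04 in single cells. Morphotypes were assigned here by the headers of the library columns, which carry the sample titles. Every direction between morphotypes given above rests on those labels.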
